A study of Mus musculus with 16 samples.

Results

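Spp1, Lox, Dkk2, Cspg4, Serpine2, Timp2, Mmp14 and Fn1 encode secreted or cell surface proteins of the extracellular matrix, and all 8 were present among the 17951 genes measured in microglia sorted by their uptake of Methoxy-X04 (Me-X04), a fluorescent dye that crosses into the brain and binds amyloid beta (Aβ) aggregates. These 8 genes were chosen by their differences between the same groups in earlier results of these data, or for a known response to plaques, so their levels and differences are a description and carry no test. RNA was sequenced from 16 libraries: 7 of microglia from wild-type mice (WT), 5 of Me-X04- microglia and 4 of Me-X04+ microglia from 5xFAD transgenic mice (TG), which carry transgenes that include mutant human APP under the neuronal Thy1 promoter. All mice received Me-X04 before isolation, and the cells of all groups were sorted as CD11b+ and CD45+; the study's methods add CX3CR1+ to the gate. The WT libraries came from cells labelled Me-X04 negative. TG Me-X04- and Me-X04+ libraries with the same number carried the same numbered genotype label, read here as 1 animal each, for 4 animals, and the fifth TG Me-X04- library had no partner. By their labels the WT mice were 2 months old and the TG mice 6 months old, while the study's methods give other ages, so by the labels genotype and age cannot be told apart between WT and TG.

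Microglia are the resident macrophages of the brain, and those that gather at Aβ plaques change their surface receptors and their secreted products. Osteopontin (Spp1) is a secreted phosphoprotein that binds integrins and CD44 and is a widely used marker of plaque-associated microglia. Lysyl oxidase (Lox) cross-links collagen and elastin, fibronectin (Fn1) is an adhesive glycoprotein bound by integrins, and NG2 (Cspg4) is a membrane chondroitin sulfate proteoglycan best known from oligodendrocyte precursors and pericytes. Dickkopf 2 (Dkk2) is a secreted Wnt modulator that binds LRP5 and LRP6. Matrix turnover is carried out by proteases such as the membrane-bound metalloproteinase Mmp14 and held back by inhibitors such as Timp2, which also takes part in the activation of Mmp2 by Mmp14, and Serpine2 (protease nexin 1), an inhibitor of thrombin, plasminogen activators and plasmin.

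By the mouse annotation of Gencode on GRCm38, all 8 are protein-coding genes, and the position of Lox is given with its values. Spp1 lies at chr5:104435118-104441050 on the plus strand, Dkk2 at chr3:132085292-132180304 (plus), Cspg4 at chr9:56865033-56899870 (plus) and Mmp14 at chr14:54431612-54445364 (plus). On the minus strand, Fn1 lies at chr1:71585520-71653200, Serpine2 at chr1:79794197-79861180 and Timp2 at chr11:118301069-118355740. RefSeq promoter windows on GRCm38.p6 matched 6 of the 8. The 250 bases before the first annotated start of Spp1 (chr5:104434861-104435110, plus strand) and of Dkk2 (chr3:132085042-132085291, plus strand) are shown because both genes stood higher in every TG Me-X04+ library than in any other library, as Cspg4 and Serpine2 also did, and because their windows alone held matches to the motifs searched among the 6 genes. They are written 5′ to 3′ with matches to the motifs searched in capitals.

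Spp1: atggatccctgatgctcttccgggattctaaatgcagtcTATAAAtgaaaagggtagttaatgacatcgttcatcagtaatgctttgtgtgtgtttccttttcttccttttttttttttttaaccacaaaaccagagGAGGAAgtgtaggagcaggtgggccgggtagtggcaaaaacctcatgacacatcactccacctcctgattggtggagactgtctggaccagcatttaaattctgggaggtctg

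Dkk2: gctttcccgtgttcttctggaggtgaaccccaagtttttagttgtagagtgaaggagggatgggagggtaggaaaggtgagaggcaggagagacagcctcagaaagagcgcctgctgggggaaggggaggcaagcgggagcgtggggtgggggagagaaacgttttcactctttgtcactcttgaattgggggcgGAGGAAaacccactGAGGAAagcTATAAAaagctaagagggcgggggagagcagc

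The motifs searched on both strands were TGANTCA (the AP-1 site), CACGTG (an E-box), GAGGAA (the core of PU.1 sites), TATAAA (the TATA box) and TTCAAAG (a TCF/LEF site), and no matches overlapped in these windows. In the Dkk2 window TATAAA began 32 bases before the start and GAGGAA 55 and 41 bases before it. In the Spp1 window GAGGAA began 113 bases and TATAAA 211 bases before the start. Over all 32851 windows of 250 bases, 23.3% held GAGGAA, 12.4% TATAAA, 6.75% TGANTCA, 6.02% CACGTG and 4.46% TTCAAAG, so these matches are common letters and a description only. The windows of Cspg4, Serpine2, Timp2 and Mmp14, each searched over 250 bases, held none of the 5. In the first 3 of these windows 71, 31 and 203 of the bases searched lay in annotated exons.

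The values were log2 RPKM, reads per gene length in kilobases and scaled library size, with a small prior added to the reads, so a gene without reads is listed at a floor of its own rather than at minus infinity. Differences are on that scale, which makes the change of weakly read genes look smaller. Reads per library on the listed genes numbered between 15623664 and 22119327 in WT, 17216633 and 25184600 in TG Me-X04-, and 22430251 and 27579017 in Me-X04+ cells of TG mice. Mitochondrial genes took 10.96 to 24.06% of the reads of WT libraries, 18.2 to 35.6% in TG Me-X04- and 27.2 to 44.8% in TG Me-X04+ libraries, and the part of this share in the results below was not tested beyond the rescaling given with them. The libraries fell into 2 sets on the first principal component of their deviations from the group means, which took 35.9% of that variance: set A of 7 libraries (WT 1 to 3 and numbers 1 and 2 of each TG group) and set B of 9, each with all 3 groups. The methods name 2 sequencers without saying which library ran on which. All microglial markers fixed for this work were measured, 10 of 10, with a summed level of 4715 to 8619 RPKM over the 16 libraries.

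**Figure D1:**
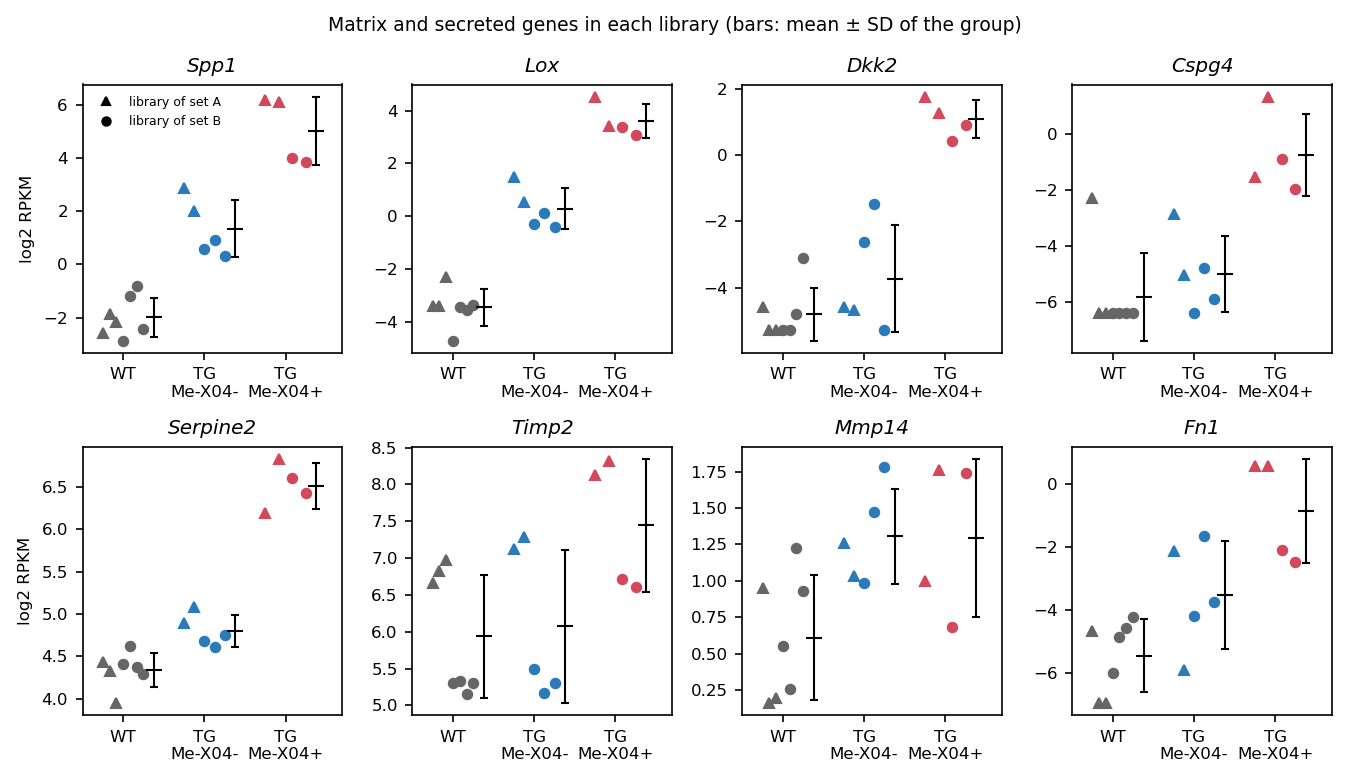
Level of the 8 matrix genes in each library (y axis, log2 RPKM, with its own range in each panel) by group (x axis), with triangles for libraries of set A, circles for set B, and the mean ± SD of the group beside them. Spp1, Lox, Dkk2, Cspg4 and Serpine2 were higher in all 4 TG Me-X04+ libraries than in any TG Me-X04- library, and Timp2 split by set within every group.

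Me-X04+ was compared with Me-X04- microglia of TG mice to see how the matrix genes differ between cells with and without Aβ uptake. The main fit did not pair libraries by animal and included the fifth TG Me-X04- library, which had no partner. Of the 8 genes, 5 were past the rule used for the whole table (adjusted p under 0.05 and an absolute log2 difference of at least 0.7, from limma with Benjamini-Hochberg adjustment), all higher in TG Me-X04+, and over all genes 3.44% were called higher and 2.06% lower. The same 5 did not overlap between the groups, as did 4.8% of all genes in that direction. The median log2 difference of the 8 was 2.98, and that of all genes -0.09; nothing is read from these counts, since the same contrast was used to choose the genes. With the animal as a block the number past the rule became 7, beside 6.28% of all genes called higher and 5.48% lower.

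Spp1 stood higher at each step from WT over TG Me-X04- to TG Me-X04+. In WT its lowest, median and highest values were -2.86, -2.18 and -0.83 log2 RPKM, from 3 to 21 reads. The 5 TG Me-X04- libraries held 2.87, 2.02, 0.58, 0.91 and 0.31, from 48 to 197 reads. The 4 TG Me-X04+ libraries held 6.18, 6.10, 3.99 and 3.86, from 561 to 1691 reads. No 2 of the 3 groups overlapped. Per length, the mean level went from 0.226 RPKM ± 0.158 (SD, n = 7) to 3.14 ± 2.55 (n = 5) and 42.8 ± 32.0 (n = 4). The log2 difference was 3.70 (SE 0.63), a fold of 12.95, between the TG fractions and 3.33 (SE 0.55), a fold of 10.04, between TG Me-X04- and WT. In set A both TG groups stood higher than in set B, while the fractions differed by 3.70 within set A and by 3.33 within set B. Markers of border macrophages, given with Fn1 below, summed to 14.7 and 21.7 RPKM in TG Me-X04+ of set A and 2.94 and 4.48 in set B. In TG Me-X04- they summed to 7.75 and 4.43 in set A and 5.62, 5.11 and 1.69 in set B. Their part in the Spp1 values was not tested.

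Lox, at chr18:52516067-52529867 on the minus strand, followed the same order. Its lowest, median and highest WT values were -4.72, -3.39 and -2.31 log2 RPKM, from 2 to 13 reads. In TG Me-X04- its values were 1.49, 0.54, -0.30, 0.12 and -0.40. In TG Me-X04+ they were 4.53, 3.41, 3.37 and 3.06. No library of a group reached into another group. The mean level was 0.0809 RPKM ± 0.0489 (SD, n = 7) in WT, 1.36 ± 0.841 (n = 5) in TG Me-X04-, with 13.1 ± 6.73 (n = 4) in TG Me-X04+. The log2 difference was 3.30 (SE 0.51) between the TG fractions and 3.74 (SE 0.45) between TG Me-X04- and WT. Both steps share the TG Me-X04- libraries, and the step from WT rests on few WT reads. Over the alternatives the step between the fractions ran from 2.52 to 3.37, and the step from WT from 1.05 to 3.98. With a pseudocount of 1 RPKM the step from WT was not past the rule. Within the sets the fractions differed by 2.96 in set A and 3.41 in set B, and within the 4 animals by 3.04, 2.87, 3.67 and 2.94.

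Dkk2 had 0 to 31 reads in each library outside TG Me-X04+. Of the 7 WT libraries 4 had 0 reads, listed at -5.27 log2 RPKM, and the highest, WT 7, held -3.12 from 8 reads. The TG Me-X04- libraries held -4.57, -4.67, -2.61, -1.49 and -5.27, from 1, 1, 14, 31 and 0 reads. The TG Me-X04+ libraries held 1.75, 1.26, 0.42 and 0.89, from 111 to 164 reads. The TG Me-X04+ libraries stood apart from both other groups, which overlapped each other. The mean level in TG Me-X04+ was 2.21 RPKM ± 0.871 (SD, n = 4), against 0.0996 ± 0.141 (n = 5) in TG Me-X04- and 0.0166 ± 0.0328 (n = 7) in WT. The log2 difference between the TG fractions was 4.80 (SE 0.74), and that between TG Me-X04- and WT was 1.07 (95% interval -0.29 to 2.44). The value of 4.80 ranked first among all 17951 genes by its size upward, in a contrast known when the genes were chosen. With pseudocounts of 0.1 and 1 RPKM it was 3.49 and 1.49, and no rank was taken in those fits. The difference within the animals was 6.32 and 5.92 in set A and 3.03 and 2.38 in set B, and the lower pair had 14 and 31 reads in the Me-X04- libraries against 1 and 1 in the higher pair.

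Cspg4, the NG2 proteoglycan, was higher in TG Me-X04+ by unequal amounts. Its reads were 0 in 6 of the 7 WT libraries, listed at -6.39 log2 RPKM, and 26 in WT 1, at -2.27. Its TG Me-X04- values were -2.84, -5.03, -6.39, -4.78 and -5.88, from 17, 3, 0, 5 and 1 reads. Its TG Me-X04+ values were -1.51, 1.35, -0.86 and -1.95, from 36, 305, 99 and 47 reads. All 4 TG Me-X04+ libraries were above every library of the other groups, with TG Me-X04+ 2 far above the rest. The log2 difference was 4.24 (SE 0.96) between the TG fractions and 0.82 (SE 0.84) between TG Me-X04- and WT. Within the animals it ranged from 1.32 to 6.38, and without TG Me-X04+ 2 the difference was 3.54 and no longer past the rule. The mean level in TG Me-X04+ was low, 0.913 RPKM ± 1.08 (SD, n = 4). Of 11 oligodendrocyte precursor markers 1, Ptprz1, was listed in the table, and Pdgfra, Sox10 and Olig2 were not listed. In the TG Me-X04+ libraries 1 to 4 Ptprz1 was at 0.048, 0.225, 0.196 and 0.024 RPKM, beside 0.338, 2.53, 0.537 and 0.248 for Cspg4. Ptprz1 was at 0.04 to 0.12 RPKM in TG Me-X04- and 0.004 to 0.14 in WT. Of 11 mural cell markers 3 were listed, with a summed level of 1.02, 2.19, 2.54 and 1.26 RPKM in the TG Me-X04+ libraries 1 to 4. The mural sum was 1.25 to 2.83 in TG Me-X04- and 2.31 to 6.95 in WT. The part of such cells in the Cspg4 values was not tested.

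The protease inhibitors were at far higher levels. Serpine2 had a lowest, median and highest WT value of 3.95, 4.37 and 4.62 log2 RPKM. It held 4.89, 5.08, 4.68, 4.61 and 4.75 in TG Me-X04-. It held 6.19, 6.83, 6.61 and 6.43 in TG Me-X04+. All TG Me-X04+ libraries were above the others, and the lowest TG Me-X04- library, at 4.61, met the highest WT library, at 4.62. The mean level was 20.4 RPKM ± 2.72 (SD, n = 7) in WT, 28.1 ± 3.76 (n = 5) in TG Me-X04-, with 92.5 ± 17.3 (n = 4) in TG Me-X04+. The log2 difference between the TG fractions was 1.71 (SE 0.18), a fold of 3.27, and within the animals it was 1.30, 1.75, 1.93 and 1.81. From WT to TG Me-X04- it was 0.46 (SE 0.16).

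Timp2 was the most abundant of the 8 per length, and its level parted by set more than by group. In WT the 3 libraries of set A held 6.67 to 6.97 log2 RPKM and the 4 of set B 5.15 to 5.34. In TG Me-X04- set A held 7.12 to 7.28 and set B 5.16 to 5.50. In TG Me-X04+ set A held 8.13 to 8.31 and set B 6.61 to 6.72. The TG fractions therefore overlapped when pooled and did not overlap within either set. The pooled log2 difference was 1.37 (95% interval 0.21 to 2.53), and within the animals it was 1.01, 1.03, 1.22 and 1.45. It was past the rule with the animal as a block (1.30) and with a term for the sets (1.21), and not in the pooled fit. Between TG Me-X04- and WT the log2 difference was 0.14 (SE 0.48), with 0.38 in set A and 0.05 in set B.

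Mmp14, the protease that Timp2 can bind, was at 0.61 ± 0.43 log2 RPKM (SD, n = 7) in WT, 1.30 ± 0.33 (n = 5) in TG Me-X04-, with 1.30 ± 0.54 (n = 4) in TG Me-X04+. The TG Me-X04- libraries held 1.26, 1.03, 0.98, 1.47 and 1.78 and the TG Me-X04+ libraries 1.00, 1.76, 0.68 and 1.74. The groups overlapped throughout. The log2 difference between the TG fractions was -0.01 (95% interval -0.72 to 0.70), with 2 animals higher and 2 lower, and that between TG Me-X04- and WT was 0.70 (SE 0.29). Where Timp2 and Serpine2 stood higher in the Me-X04+ library of each animal, Mmp14 did so in 2 of 4.

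Fn1 had few reads in most libraries. It ranged from 0 to 13 reads in WT, listed at -6.93 to -4.20 log2 RPKM. The TG Me-X04- libraries held -2.15, -5.90, -4.19, -1.65 and -3.75, from 42, 2, 15, 92 and 19 reads. The TG Me-X04+ libraries held 0.54, 0.56, -2.10 and -2.48, from 224, 257, 60 and 47 reads. The TG Me-X04+ libraries of set A were above all others, and those of set B lay among the TG Me-X04- libraries. The log2 difference between the fractions was 2.65 (95% interval 0.65 to 4.66) pooled, 4.57 in set A and 0.90 in set B, and it was 2.69, 6.46, 2.08 and -0.84 within the animals. It was past the rule only with the animal as a block, at 2.63. Markers of border macrophages, cells that can express Fn1, summed to 14.7 and 21.7 RPKM in the TG Me-X04+ libraries 1 and 2 and to 2.94 and 4.48 in libraries 3 and 4. Over the groups that list, of which 8 of 10 markers were listed in the table, summed to between 2.34 and 6.36 RPKM in WT and between 1.69 and 7.75 in TG Me-X04-, none of its markers was called between the TG fractions, and its part in the Fn1 values was not tested. Markers of monocytes and neutrophils summed to 13.7, 11.7, 6.67 and 0.91 RPKM in the TG Me-X04+ libraries 1 to 4. In the TG Me-X04- libraries 1 to 5 they summed to 28.3, 3.20, 2.08, 1.38 and 2.01. Their part in the Fn1 values was not tested either. In sorted bulk samples, fewer cells of a type and less RNA per cell cannot be told apart.

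**Figure D2:**
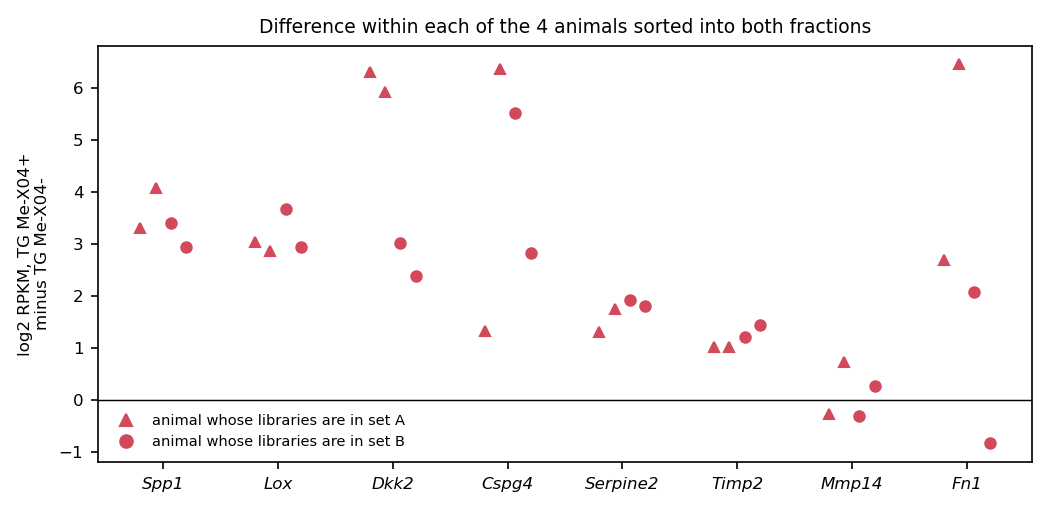
Difference between the Me-X04+ and the Me-X04- library of the same animal (y axis, log2 RPKM) for each gene (x axis), with triangles for the 2 animals of set A and circles for the 2 of set B. Lox, Serpine2 and Timp2 differed by a like amount in all 4 animals, Dkk2 and Cspg4 by unequal amounts above 0, and Mmp14 and Fn1 on both sides of 0.

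TG Me-X04- microglia were compared with WT microglia to see what differs without Aβ uptake. Of the 8 genes 2, Spp1 and Lox, were past the rule, both higher in TG Me-X04-, and over all genes 0.189% were called higher and 0.0111% lower. The same 2 did not overlap between the groups, as did 0.652% of all genes in that direction. All 8 had a log2 difference above 0, with a median of 0.95 against 0.01 over all genes. The share of all genes above 0 was not taken. Nothing is read from these counts, since the genes were chosen with this contrast known. Timp2 had a log2 difference below 0 without TG Me-X04- 1, at -0.13, or TG Me-X04- 2, at -0.17. Without TG Me-X04- 1, the library with the highest Spp1 and Lox values of its group, the Spp1 difference was 2.95 and Spp1 was not past the rule. Both comparisons share the TG Me-X04- libraries, so a low value there would enlarge one difference and reduce the other.

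The 4 genes with the largest differences between the fractions were set beside all other genes with a symbol by the root mean square difference of their centred log2 values over the 16 libraries. Nearest to Spp1 were Lgi2 (0.71), Lox (0.73) and Rab7b (0.86). Nearest to Lox were the growth factor Igf1 (0.69), Lgi2 (0.70) and Baiap2l2 (0.70). Because they were chosen by this likeness, these genes also had a step from WT to TG Me-X04- and another to TG Me-X04+. Igf1 was at -3.26, 0.58 and 4.68 log2 RPKM on average in the 3 groups. Nearest to Dkk2 were Ctnna3 (0.88), Cd28 (1.08) and Fbn2 (1.13), and nearest to Cspg4 were Itgax (1.00), Il1rn (1.19) and Csf1 (1.21). Itgax, the integrin subunit CD11c, averaged 0.00 log2 RPKM in WT, 1.92 in TG Me-X04-, with 5.69 in TG Me-X04+.

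The surrounding matrix genes were taken from 9 lists of receptors, enzymes, inhibitors and structural proteins that hold none of the 8. Of 187 listed genes 87 were measured. Between the TG fractions 4 of the 87 were called higher and 5 lower by limma, beside 3.44% and 2.06% of all genes, and the median log2 difference of the 87 was 0.06 against -0.09 over all genes. The animal as a block gave 11 higher and 9 lower, beside 6.28% and 5.48% of all genes. Scaling by the reads outside mitochondrial genes moved the median of all genes by -0.39 and gave 1 higher and 8 lower of the 87, beside 1.39% and 5.28% of all genes.

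Fbn2, a fibrillin of elastic microfibrils, rose most, with 0 to 4 reads in WT, 2 to 37 in TG Me-X04- and 157 to 357 in Me-X04+ cells of TG mice. Its log2 difference was 4.23 (SE 0.62, adjusted p = 0.000945 by limma), and the groups of the TG fractions did not overlap. Col6a3, a chain of collagen VI, fell by 3.46 on the log2 scale (adjusted p = 0.00263 by limma), from 106 to 458 reads to 13 to 56. The other 16 of the 18 structural and matricellular genes measured were not called, among them the thrombospondin Thbs1, at 1.57 (adjusted p = 0.0576 by limma). Thbs1 was called higher under 9 of the alternatives, at 0.92 to 1.83 with adjusted p of 0.00655 to 0.0399 by limma, and without TG Me-X04+ 1.

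Of 9 receptors of osteopontin and fibronectin measured, 1 was called: Itga9, the integrin alpha 9 subunit, fell by 1.34 on the log2 scale (adjusted p = 0.0328 by limma), and its call was lost without TG Me-X04- 1, 2 or 5 or TG Me-X04+ 1, 3 or 4, with differences of -1.07 to -1.37 and adjusted p of 0.0634 to 0.0982 by limma in those 6 fits. It was also lost without a variance trend (adjusted p = 0.0514), with median centring (0.068) and with only the 2 groups fitted (0.109), all by limma. The hyaluronan and osteopontin receptor Cd44 had a difference of 1.69 (95% interval 0.50 to 2.88, adjusted p = 0.0946 by limma). Its level was -1.39 ± 0.95 log2 RPKM (SD, n = 5) in TG Me-X04-, with 0.30 ± 0.77 (n = 4) in TG Me-X04+, and it was called with the animal as a block (adjusted p = 0.0445 by limma). Among the other integrin subunits, the log2 difference was 2.20 for Itgb8 (adjusted p = 0.108 by limma), 0.83 for Itgb3 and 0.71 for Itga5. It was 0.27 for Itgb5, 0.23 for Itgb1, -0.05 for Itga4 and -0.37 for Itgav, none called by limma in the pooled fit, and the signs of Itgb5, Itgb1 and Itga4 changed with quantile normalization. Itgb3 was called with the animal as a block (adjusted p = 0.0416 by limma). Itgb8 was called with quantile normalization (adjusted p = 0.0202 by limma) and voom (0.0379), Cd44 with voom (0.0189), Itgb3 with library weights (0.0455), and Itgav, lower at -0.76, with scaling outside mitochondrial genes (0.0216). Without TG Me-X04- 1 both Cd44, at 2.03, and Itgb8, at 2.72, were called, and without TG Me-X04+ 1 Cd44, at 2.07.

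Of 11 lysyl oxidases and collagen-processing genes measured, 1 was called. Crtap, the cartilage-associated protein of the prolyl 3-hydroxylase complex, rose by 1.29 on the log2 scale (adjusted p = 0.0235 by limma), from 82 to 114 reads to 152 to 267. Its call was lost without TG Me-X04- 4 or 5 or TG Me-X04+ 1 or 2, with adjusted p of 0.0558 to 0.0622 by limma. None of the relatives of Lox was called: Loxl2 had a log2 difference of -1.30 (adjusted p = 0.165 by limma), Loxl3 -0.23 and Loxl4 -0.41, and Loxl1 was not listed in the table. With the animal as a block Loxl2 was called lower, at -1.38 (adjusted p = 0.0423 by limma). The lysyl hydroxylase Plod1 passed the adjusted p, at 0.0211 by limma, with a log2 difference of -0.695 that was under the threshold of size. It was called with quantile normalization, at -0.86, with scaling outside mitochondrial genes, at -1.09, and without TG Me-X04- 2, TG Me-X04- 4 or TG Me-X04+ 3.

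Dkk2 was the Dickkopf gene of the table, and Dkk1 and Dkk3 were not listed. Of 5 Wnt antagonists and receptors measured none was called by limma: the Dkk2 receptors Lrp5 and Lrp6 had log2 differences of -0.59 (95% interval -1.37 to 0.19) and 0.09 (95% interval -0.43 to 0.61), and Kremen1 0.07 (95% interval -0.69 to 0.84). Of 3 genes that Wnt signalling through beta-catenin is known to induce, the cyclin Ccnd1 fell by 1.28 on the log2 scale (adjusted p = 0.00194 by limma), while Myc, at 0.07, and Znrf3, at 0.60, were not called. Ccnd1 is also driven by many other signals.

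Of 9 proteoglycans measured the syndecan Sdc3 rose by 1.38 on the log2 scale (adjusted p = 0.0325 by limma), and leaving out any of the 9 TG libraries other than TG Me-X04+ 1 took its adjusted p above 0.05, to at most 0.0942. Of 18 metalloproteinases, Adam9 rose by 1.04 (adjusted p = 0.0101 by limma) and Mmp28 fell by 3.37 (adjusted p = 0.00771 by limma), the latter from 29 to 105 reads to 0 to 11. Mmp2, which Mmp14 and Timp2 together activate, had a log2 difference of -0.04 (95% interval -0.99 to 0.92). Adam9, Crtap and Sdc3 were not called when the libraries were scaled by the reads outside mitochondrial genes, with adjusted p of 0.115, 0.0753 and 0.162 by limma, nor with only the 2 groups fitted, with 0.0508, 0.0874 and 0.051. Mmp28 was not called with a pseudocount of 1 RPKM, where its difference of -0.65 was under the threshold of size.

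Of 8 other protease inhibitors measured, Serpinf1 (pigment epithelium-derived factor) fell by 2.44 on the log2 scale (adjusted p = 0.00245 by limma). Timp1 and Timp3 were not listed in the table. None of 6 genes of the plasminogen and thrombin system was called by limma. The urokinase Plau, which Serpine2 can inhibit, was at 0.55 (95% interval -0.20 to 1.30). Its receptor Plaur was at 1.75 (adjusted p = 0.0612) and the thrombin receptor F2r at 3.90 (adjusted p = 0.0790), both by limma. F2r was called with the animal as a block (adjusted p = 0.0148 by limma), with a term for the sets (0.0237), and without TG Me-X04- 1, at 4.97, or TG Me-X04+ 4, at 5.06. Plaur was called under 7 of the alternatives, at 1.49 to 1.86 with adjusted p of 0.00315 to 0.0475 by limma, and without TG Me-X04+ 2.

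**Figure D3:**
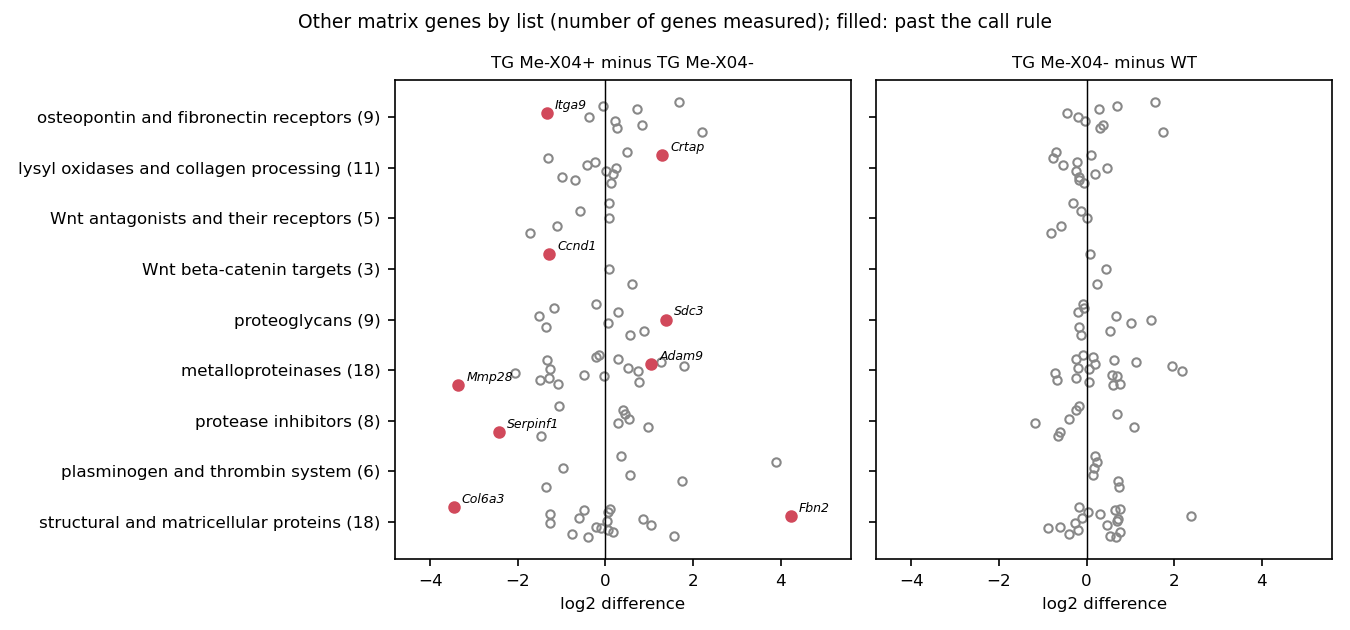
Log2 difference (x axis) of the 87 other matrix genes in 9 lists (y axis, number of genes measured in brackets) for TG Me-X04+ minus TG Me-X04- on the left and TG Me-X04- minus WT on the right, each circle 1 gene and filled circles with names past the call rule. On the left 4 genes were called higher and 5 lower, and on the right 0 were called.

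Between TG Me-X04- and WT none of the 87 was called by limma, 9 of them had an unadjusted p under 0.05 (all 9 higher in TG Me-X04-), and limma voom on the recovered reads called 0. Over all genes 929 of 17951 had an unadjusted p under 0.05 in this comparison. The median of the 87 was 0.07 against 0.01 over all genes. Fbn2 and Sdc3, called between the TG fractions, had log2 differences of 2.39 (adjusted p = 0.127) and 1.46 (adjusted p = 0.0959) from WT to TG Me-X04- by limma.

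Cell type markers were summed in each library beside these values. In TG Me-X04+ the neuronal list, led by Snap25, summed to 0.08 to 0.45 RPKM, the fibroblast list, led by Col15a1, to 3.05 to 9.98, and the lymphocyte list, led by Cd79b, to 0.37 to 4.34. The astrocyte list, led by Slc1a3, summed to 10.3 to 19.4 RPKM and the oligodendrocyte list, led by Cnp, to 10.7 to 15.4, against 14.8 to 28.4 and 13.96 to 15.99 in TG Me-X04-. No measured marker of these lists was at 0 in every library, from which nothing is read, since the authors had removed lowly expressed genes. The microglial list summed to 5873 to 8596 RPKM in TG Me-X04+. Of its 10 markers, Tmem119 fell between the TG fractions, with a log2 difference of -1.58 (adjusted p = 0.00821 by limma). Of 4 endothelial markers measured Flt1 rose by 3.55 on the log2 scale (adjusted p = 0.00608 by limma), whereas Pecam1, which led the list, Cdh5 and Kdr had differences of -2.47, -2.41 and -0.98 and were not called. Cdh5 was called lower with the animal as a block (adjusted p = 0.0165 by limma), with a term for the sets (0.0421) and with scaling outside mitochondrial genes (0.0426), and without TG Me-X04+ 3 both Pecam1, at -3.99, and Cdh5, at -3.00, were called. The endothelial list summed to 2.49 to 13.7 RPKM in WT, 1.94 to 2.96 in TG Me-X04- and 1.26 to 8.43 in TG Me-X04+. The mural list was led by Acta2, the border macrophage list by Mrc1 and the list of monocytes and neutrophils by S100a9, the last with 0.91 to 13.7 RPKM in TG Me-X04+ and 1.38 to 28.3 in TG Me-X04-. The part of these cells in the levels of the matrix genes was not tested.

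**Figure D4:**
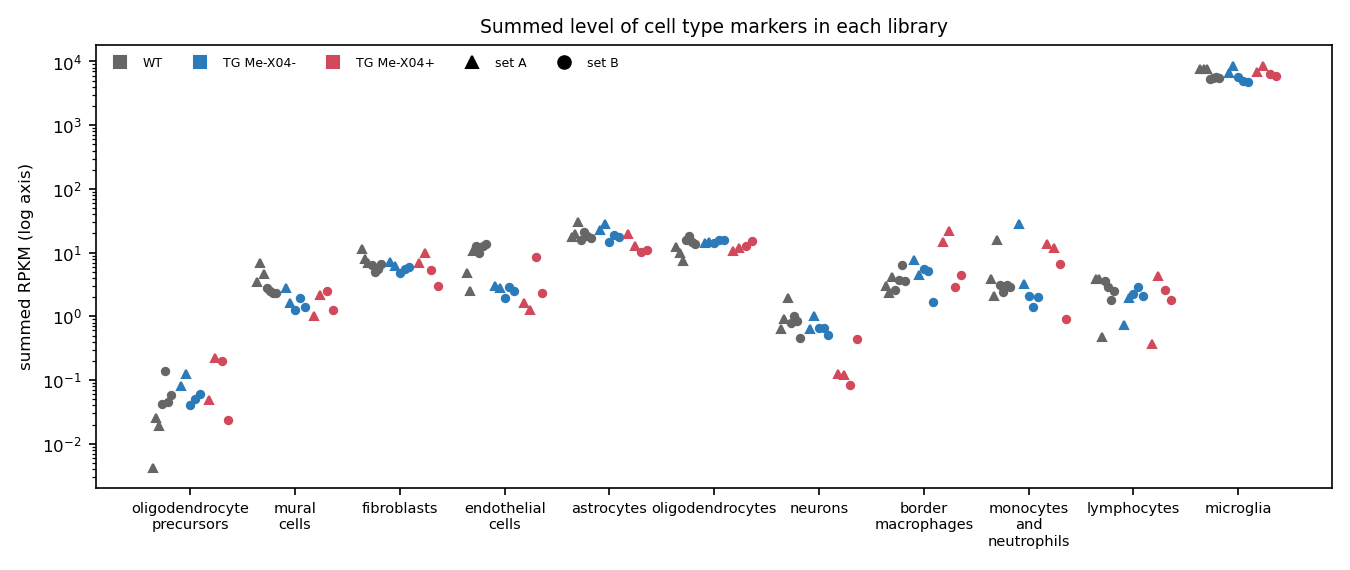
Summed RPKM (y axis, log axis) of the measured markers of 11 cell types (x axis) in each library, coloured by group, with triangles for set A and circles for set B. Microglial markers stood between 4715 and 8619 RPKM in all libraries, and border macrophage markers were highest in the 2 TG Me-X04+ libraries of set A, at 14.7 and 21.7 RPKM.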

How the data were processed

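RNA was measured in 16 libraries of sorted microglia, grouped by their sample labels. The authors trimmed reads with Trim Galore 0.4.4, aligned them to GRCm38 with STAR 2.5.4b, which kept reads with up to 10 positions, counted them on genes of an earlier Gencode release with featureCounts, removed lowly expressed genes and scaled the libraries by TMM. RNA was amplified by the library kit, and whether counting used strand is not given in the sources used here. The authors deposited log2 RPKM values with a small prior, 1 column per library, together with the gene length in bases and 2 comparisons of their own (fold changes, mean expression, t, p, adjusted p and log odds), which were not used.

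The deposited log2 values of all 17951 genes were fitted by lmFit and eBayes with trend of limma 3.58.1 (R 4.3.3; 1 coefficient per group, two-sided, Benjamini-Hochberg over all genes). Calls needed an adjusted p under 0.05 and an absolute log2 difference of at least 0.7. The fit was tested on simulated data. Reads were worked back from the even spacing of the linear values in a library, with 100% of the values within 0.01 of a whole number, and served for depths, RPKM without the prior, and voom. Gene symbols were those of the table for 12919 genes and of the reference for 4874 more. Coordinates are from a later Gencode release on GRCm38. Data were handled with pandas 2.3.3 and drawn with matplotlib 3.10.9.

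The members and the gene lists were chosen with earlier results of these data known. The genes named are all members, up to 4 called genes of each list by size of difference, the known receptors and relatives of members, the 3 genes most like each of 4 members, and the highest marker of each cell type list; 2 genes that this rule names are not reported here. Pdgfra, Sox10, Olig2, Thbs1, Plaur, Plod1, Myc, Znrf3, Mmp2, Srgn, Adamts1, Mmp15, Mmp23, Tgfbi, Tmem119 and the endothelial markers other than Pecam1 were named after their values were seen. Libraries of a group carry differently numbered genotype labels, which were read as animals. The labels do not say outright that each number is 1 animal, so p-values measure the spread between these libraries, which may be technical in part.

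Same-numbered TG libraries carry the same numbered genotype label, and their deviations from the group means correlated at 0.317 on average (lowest 0.292, 4 pairs), against 0.272 for libraries of other animals in the same set (6 pairs). Alternatives were no variance trend, library weights, quantile normalization, median centring, scaling by reads outside mitochondrial genes, pseudocounts of 1 and 0.1 RPKM, a mean log2 RPKM of at least 0, only the 2 groups compared, the animal as a block, a term for the 2 sets, voom, and each library left out.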

Additional observations from a re-analysis of the deposited data

Results flagged for a closer look

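Among 24 combinations of member and group searched for a library that stands apart, 2 were found, and chance marks about 1 in 20 groups of normally distributed values, a rate that does not hold for libraries tied at 0 reads. Dkk2 in WT had its highest value in WT 7, at -3.12 log2 RPKM from 8 reads, while the other 6 WT libraries had 0 or 1 read. Cspg4 in WT had its highest value in WT 1, at -2.27 log2 RPKM from 26 reads, while the other 6 WT libraries had 0 reads. In both cases the WT value stayed below every TG Me-X04+ library.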

How the results depend on the processing

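In all the alternatives and leave-one-out fits that gave a value, Spp1, Lox, Dkk2, Cspg4 and Serpine2 kept a positive difference between the TG fractions. Members past the rule in this comparison numbered 5 in the main fit and in each alternative not named here. They numbered 2 with a mean log2 RPKM of at least 0, which leaves out Lox, Dkk2, Cspg4 and Fn1. With the animal as a block they numbered 7, with a term for the sets 6, and without TG Me-X04+ 2 they numbered 4. Nothing is read from these counts, since the genes were chosen with this contrast known. In TG Me-X04- against WT they numbered 2, and 0 with a pseudocount of 1 RPKM, 1 with the mean filter, 1 with voom, and 1 to 2 when libraries were left out in turn. For the members the share over all genes is not given with the mean filter, the term for the sets, the pseudocount, voom or a library left out. Nothing is read from these member counts. The 87 matrix genes gave 9 calls between the TG fractions, 5 with only the 2 groups, 20 with the replicate block of the paired animals, 14 with a term for the sets and 15 with voom. The share over all genes was given above for the main fit and the block. It is not given for the fits with only the 2 groups, the term for the sets and voom, so nothing is read from those counts. From WT to TG Me-X04- the 87 gave 0, 1 without a variance trend, 3 with library weights, 1 with quantile normalization, 1 with median centring, 1 with the term for the sets, and 0 to 1 when libraries were left out. Over all genes this comparison gave 34 calls higher and 2 lower, 39 and 4 with quantile normalization, and 34 and 0 with median centring. The share over all genes is not given for the other fits, and nothing is read from these counts. The block brought Timp2 and Fn1 past the rule and added calls of Cd44, F2r, Itgb3, Thbs1, Plaur, Loxl2 and the marker Cdh5; the other list genes it added were Srgn and Adamts1 (higher) and Mmp15, Mmp23 and Tgfbi (lower). With a pseudocount of 1 RPKM the low genes shrank most, Dkk2 to 1.49, Cspg4 to 0.74 and Fn1 to 0.61 between the TG fractions, so the size of a fold rests on the prior for genes with few reads.

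Changes of sign between the TG fractions were found in genes that were not called. Mmp14 was at -0.0087, and at 0.051 with quantile normalization, 0.023 with median centring, 0.0035 with a pseudocount of 1, 0.037 with the block and 0.0085 with the term for the sets, and at -0.16 to 0.19 when libraries were left out. With quantile normalization, values were -0.21 for Myc, 0.41 for Itga4, -0.15 for Itgb1, -0.37 for Itgb5, 0.27 for Loxl4 and -0.060 for Lrp6. With scaling outside mitochondrial genes, they were -0.32 for Myc, -0.17 for Itgb1, -0.12 for Itgb5, -0.32 for Kremen1 and -0.30 for Lrp6. Itga4 was 0.15 and 0.084, and Loxl4 0.34 and 0.20, with pseudocounts of 1 and 0.1. With the term for the sets Mmp2 was 0.039 and Myc -0.0057. When libraries were left out, values ran from -0.18 to 0.17 for Mmp2, -0.19 to 0.34 for Myc, -0.91 to 0.80 for Itga4, -0.080 to 0.32 for Kremen1, -0.43 to 0.16 for Loxl3, -1.92 to 0.52 for Loxl4 and -0.014 to 0.24 for Lrp6. The cause of these changes was not tested.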
